A study of Mus musculus with 17 samples.

Results

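A set of 10 genes known from medium spiny neurons, the projection neurons of the striatum, was followed through 17 mouse brain arrays after experimental stroke. A gene was taken where the platform annotation gave its symbol to a probe set. Of the 10 genes, 6 were found this way: Drd2, Penk, Tac1, Rasgrp2, Pde1b and Rgs9. They carried 8 of the 12488 probe sets and were 6 of 8251 genes with a single symbol. Drd1, Adora2a, Gng7 and Ppp1r1b are not analysed here.

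All RNA came from white and grey matter supplied by the middle cerebral artery. Treated ischemic pools came from mice that had 1 h of ischemia and then the catalytic antioxidant AEOL 10150 by vein, and tissue was taken at 6 h of reperfusion. Ischemic pools had the same ischemia and reperfusion with no drug named. Drug control pools were taken 6 h after AEOL 10150 without ischemia, and control pools 6 h after saline. Each of these 4 groups had 3 arrays, and each array held RNA pooled from 6 brains. A further 5 arrays each held a single treated ischemic brain, numbered 11, 12, 13, 14 and 16. Strain, sex, age and dose are not stated in the labels, and the labels do not say what the untreated ischemic mice were injected with. A pool hides the spread between the brains in it, so p-values among pools measure the spread between pools.

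The labels of a few arrays disagree with themselves. The description of drug control pool 1 names saline in place of the drug, and that of treated ischemic pool 1 names no drug. Treated ischemic pool 2 is called a first replicate in its description. Brain 11 carries the number 4 in its title. Titles set the groups of the pools, and the single brains were set apart by their descriptions, since their titles are those of treated ischemic arrays. The arrays were also deposited on unlike scales, with a trimmed mean (values between the 2nd and 98th percentiles) of 2500 on 10 arrays and of 129 to 210 on the other 7, which were the 5 single brains and treated ischemic pools 2 and 3. Every array was therefore rescaled to a trimmed mean of 2500. All values below are these scaled intensities or their log2, with intensities under 109.5 set to that floor before log2 was taken. Genes that respond to ischemia separated the arrays labelled ischemic from the others, which says nothing of the drug labels: the heat shock gene Hspa1a was higher by 4.21 on the log2 scale (SE 0.30, limma adjusted p = 0.000282) and the transcription factor gene Atf3 by 3.16 (SE 0.17, limma adjusted p = 2.99e-05), as the mean of both ischemia comparisons.

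Medium spiny neurons are the main output cells of the striatum and lie in the territory that this artery feeds. Those of the indirect pathway carry the dopamine D2 receptor and the opioid peptide enkephalin, and those of the direct pathway carry the D1 receptor and the tachykinin substance P. Dopamine and adenosine receptors on these cells act through cyclic AMP, which phosphodiesterases break down. Within the set, the indirect pathway was represented on the arrays by Drd2, which encodes the D2 receptor, and Penk, which encodes the enkephalin precursor. The direct pathway was represented in the set by Tac1 alone, which encodes the substance P precursor. Rasgrp2 encodes a calcium-responsive activator of Rap proteins that is rich in striatal neurons, Pde1b a calmodulin-dependent phosphodiesterase, and Rgs9 a regulator of G protein signalling whose striatal form acts on dopamine receptor signals.

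RefSeq promoter windows of build GRCm38.p6, from 250 bases before to 50 bases after the start of transcription, were read for 5 of the 6 genes, all but Penk. Drd2 and Tac1 are printed because they stand for the indirect and direct pathways and differ in the cyclic AMP response element core. The Drd2 window is chr9:49340153-49340452 on the plus strand, and the Tac1 window is chr6:7554811-7555110 on the plus strand. Both are written 5′ to 3′, and capitals mark the core TGACG on either strand.
Drd2: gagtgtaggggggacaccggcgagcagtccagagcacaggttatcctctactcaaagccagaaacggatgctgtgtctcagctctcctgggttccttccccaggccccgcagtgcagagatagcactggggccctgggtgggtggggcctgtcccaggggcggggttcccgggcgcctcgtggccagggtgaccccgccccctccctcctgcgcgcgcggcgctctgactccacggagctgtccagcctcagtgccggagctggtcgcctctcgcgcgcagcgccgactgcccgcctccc
Tac1: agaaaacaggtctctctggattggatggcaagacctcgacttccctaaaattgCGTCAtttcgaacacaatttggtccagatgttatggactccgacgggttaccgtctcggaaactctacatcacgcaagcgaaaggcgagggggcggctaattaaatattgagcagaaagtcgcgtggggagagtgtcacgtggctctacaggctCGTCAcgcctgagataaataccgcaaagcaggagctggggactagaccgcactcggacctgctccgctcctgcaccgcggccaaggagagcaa
The Tac1 window held the core at 2 places, starting 197 and 43 bases before the start of transcription, each read as CGTCA on the printed strand. The Drd2 window held no match, nor did the windows of Rasgrp2, Pde1b and Rgs9. The core occurred in 20.8% of all 32851 windows of 300 bases. The full element TGACGTCA, which contains the core, occurred in 1.79% of windows and in none of these genes. TATAAA occurred in 13.6% of windows, in the Rgs9 window and in 1 of the 3 Pde1b windows. These matches describe letters in a window and were not linked to any expression value.

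Of the 6 genes, 5 were bright on the arrays. Drd2, Rasgrp2, Penk, Tac1 and Pde1b were above the floor on all 17 arrays. Rgs9 was above it on 6 of the 12 pools and 1 of the 5 single brains, so its values below have little weight. Penk had 3 probe sets. The brightest, 94516_f_at, is used as its value, and its f suffix marks probes that can match related transcripts. The probe set 94517_r_at was also above the floor everywhere, and 161164_r_at was above it on 3 of 12 pools and on no single brain.

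Drd2 (probe set 97776_at, gene at chr9:49340360-49408177 in GRCm38.p6) was lower in ischemic tissue, with and without drug. Its scaled intensity was 1557, 1878 and 1613 in treated ischemic pools 1, 2 and 3, against 3241, 3111 and 3251 in drug control pools. It was 1178, 1572 and 2423 in ischemic pools, against 2905, 2572 and 3363 in control pools. All 6 ischemic arrays lay below all 6 arrays without ischemia, with ischemic pool 3 the nearest to the controls. The log2 mean was 10.71 ± 0.14 in treated ischemic pools against 11.64 ± 0.04 in drug control pools, and 10.69 ± 0.52 in ischemic pools against 11.52 ± 0.19 in control pools (SD, n = 3 each). The log2 difference was -0.93 with drug (SE 0.25, limma adjusted p = 0.62) and -0.83 without drug (SE 0.25, limma adjusted p = 0.693). As the mean of both it was -0.88 (95% interval -1.27 to -0.49), an ischemic level of 54.3% of the level without ischemia, with a limma adjusted p of 0.0901 over all 10259 probe sets tested. In whole tissue RNA, fewer cells of a type and less RNA per cell cannot be told apart.

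With each of the 12 pools left out in turn, the mean difference of Drd2 ran from -1.02 to -0.76. Its limma adjusted p ran from 0.0217 to 0.261. The lowest p was without ischemic pool 3, whose Drd2 was the highest of the 6 ischemic arrays, so leaving it out enlarges the difference. With groups taken from the descriptions in place of the titles the mean difference was -0.88 (limma adjusted p = 0.124). Without the 2 pools of unlike labels it was -0.85 (limma adjusted p = 0.48). The 2 doubtful labels concern the drug, and neither array changes its ischemia status with them, so this mean could hardly move. The call was missed either way.

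Rasgrp2 (103282_at, chr19:6398957-6415216) had the largest difference among the 6 genes. Its intensity was 482, 1002 and 1063 in treated ischemic pools against 1466, 1672 and 1562 in drug control pools. It was 591, 706 and 920 in ischemic pools against 1182, 1709 and 2005 in control pools. Here too the 6 ischemic arrays lay below the 6 others, with treated ischemic pool 1 the lowest. The log2 difference was -0.97 with drug (SE 0.33, limma adjusted p = 1) and -1.13 without (SE 0.33, limma adjusted p = 0.592). The mean of both was -1.05 (95% interval -1.56 to -0.54), or 48.3% of the level without ischemia, with a limma adjusted p of 0.145. With the pool number as a replicate block the limma adjusted p of that mean was 0.024, past the threshold of 0.05. Without the 2 pools of unlike labels the difference was -0.89 (limma adjusted p = 0.327).

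Pde1b (93382_at, chr15:103503034-103530056) differed less, with the same separation of groups. Its intensity was 12795, 10950 and 12425 in treated ischemic pools against 21018, 19236 and 15013 in drug control pools, and 13628, 10580 and 10964 in ischemic pools against 20265, 15359 and 13879 in control pools. The highest ischemic value, 13628, was just under the lowest control value, 13879. The log2 difference was -0.60 with drug and -0.48 without, and the mean of both was -0.54 (SE 0.15, limma adjusted p = 0.374), or 68.7% of the level without ischemia.

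Penk (94516_f_at, chr4:4133536-4138815) was at 24635, 46579 and 32709 in treated ischemic pools against 45013, 49649 and 54521 in drug control pools, and at 30331, 40552 and 37970 in ischemic pools against 42575, 56116 and 56412 in control pools. Without drug the groups did not overlap. With drug they did, since treated ischemic pool 2 was above drug control pool 1. The log2 difference was -0.57 with drug (SE 0.25) and -0.51 without (SE 0.25), and the mean of both was -0.54 (SE 0.18, limma adjusted p = 0.606). The dimmer probe set 94517_r_at gave -0.14 with drug (SE 0.61) and -1.30 without (SE 0.61). Its drug control pool 2 was at 1101, against 5548 and 6310 in drug control pools 1 and 3, so that probe set adds little for the drug arm.

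Tac1 (102726_at, chr6:7555061-7562978), the only direct pathway gene of the set that was measured, showed no separation among pools. Its intensity was 2190, 6501 and 3089 in treated ischemic pools against 4217, 6708 and 5205 in drug control pools, and 3803, 6700 and 3255 in ischemic pools against 4391, 7241 and 4088 in control pools. In every group pool 2 was the highest, and that spread was wider than the ischemia difference. The log2 difference was -0.58 with drug and -0.22 without (SE 0.43 each), and the mean of both was -0.40 (95% interval -1.07 to 0.27, limma adjusted p = 1.0). Rgs9 (99907_at, chr11:109225348-109298181) had a mean difference of -0.34 (95% interval -1.15 to 0.48), with 4 of 6 ischemic arrays and 2 of 6 others at the floor.

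**Figure D1:**
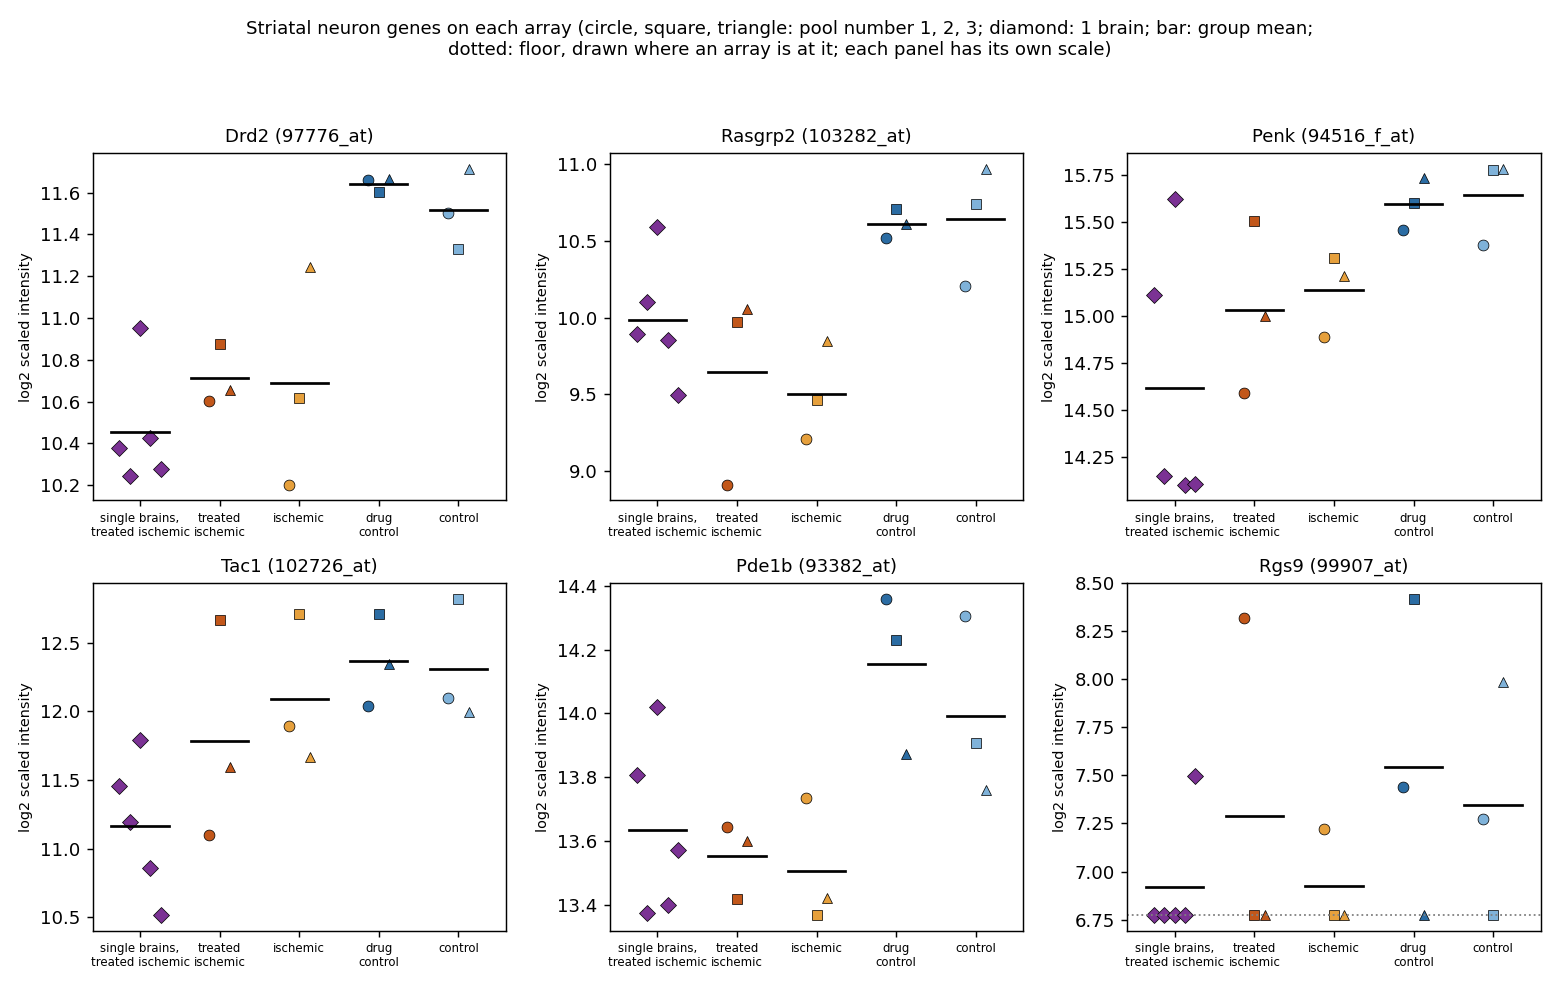
Log2 scaled intensity (vertical axis) of the 6 striatal neuron genes on each of the 17 arrays, by group; symbols give the pool number or a single brain, and bars the group mean. Drd2, Rasgrp2 and Pde1b lie lower in all 6 ischemic pools than in the 6 pools without ischemia, while Tac1 is highest in pool 2 of every pooled group.

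Over the 6 genes the median log2 difference was -0.59 with drug, against -0.02 over all probe sets tested, and -0.50 without drug, against 0.03 over all. As the mean of both it was -0.54 against 0.01. Without treated ischemic pool 2 the median with drug was -0.91. It was -1.02 with the deposited scale as a block, which leaves treated ischemic pool 1 alone to set its group's level. All 6 genes were lower in each comparison, where 53.5%, 45.7% and 47.5% of all probe sets were lower. None of the 6 passed a limma adjusted p of 0.05 in any of these comparisons, and few probe sets did: 0.0877% with drug, 0.214% without and 0.448% for the mean of both. At an unadjusted p under 0.05, 4 of the 6 were lower with drug (1.37% of all probe sets), 3 without (1.23%) and 4 for the mean of both (1.72%). Counted by arrays that did not overlap, 3 genes were lower with drug (Drd2, Rasgrp2 and Pde1b, against 3.64% of all), 4 without (those and Penk, against 3% of all), and 3 over 6 against 6 pools (Drd2, Rasgrp2 and Pde1b, against 0.283% of all). When each array's median log2 over 16 general neuron genes was subtracted, the median was -0.38 with drug and -0.35 without. That baseline moved the median of all probe sets by 0.21 with drug and 0.15 without. The neuron genes themselves had a smaller median difference, -0.08 with drug and -0.07 without, so the shift is not a measure of their change.

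**Figure D2:**
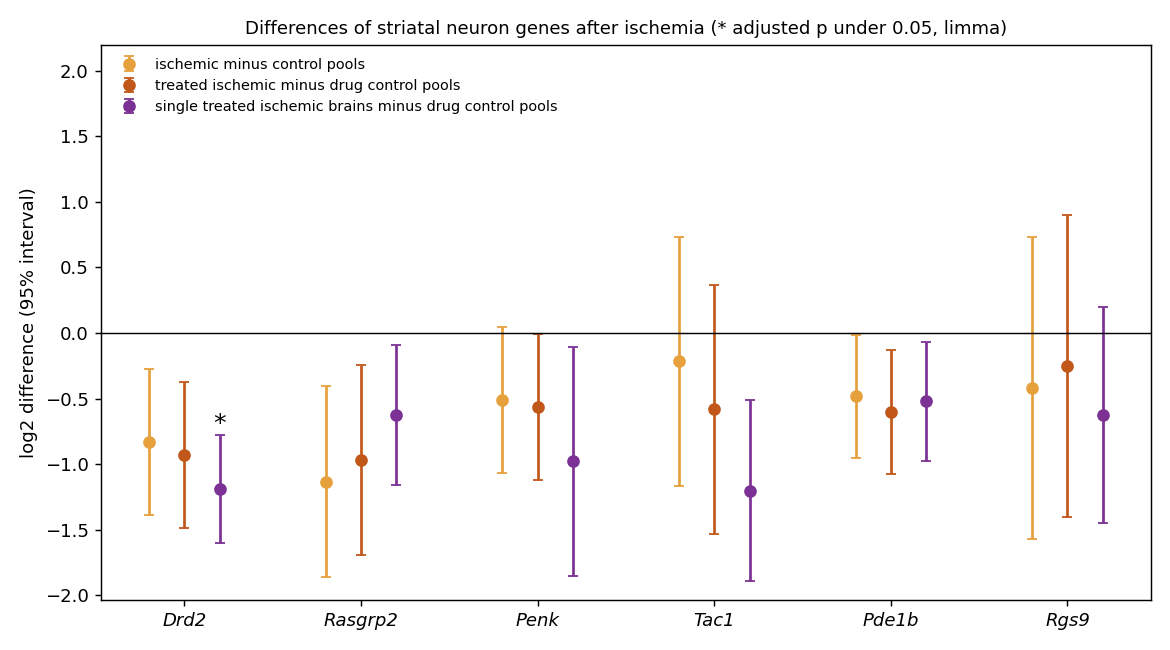
Log2 difference (vertical axis, with 95% intervals) of each gene for treated ischemic minus drug control pools, ischemic minus control pools, and single treated ischemic brains minus drug control pools. Every point lies below 0. All intervals of Rgs9, both pooled intervals of Tac1 and that of Penk without drug span 0. The star marks Drd2 in single brains, the difference with a limma adjusted p of 0.0127.

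No difference between arrays with and without drug passed the test for these genes. The drug labels limit this reading, since drug control pool 1 and treated ischemic pool 1 are described without the drug. Treated ischemic pools 2 and 3 were deposited on the other scale, and no ischemic pool was. For those pools, drug and deposited scale cannot be told apart. Between treated ischemic and ischemic pools the log2 difference was 0.02 for Drd2 (95% interval -0.53 to 0.58), 0.14 for Rasgrp2 (-0.59 to 0.87), -0.11 for Penk (-0.66 to 0.45), -0.31 for Tac1 (-1.26 to 0.65) and 0.05 for Pde1b (-0.42 to 0.52). The median of the 6 genes was 0.04, and -0.32 with the deposited scale as a block. In that block, treated ischemic pool 1 alone sets the level of its group. Between drug control and control pools the median was 0.09 and the range -0.05 to 0.20. The ischemia response with drug minus that without had a median of -0.08 and a range of -0.37 to 0.17. None of the 6 genes passed an adjusted or an unadjusted limma p of 0.05 in these 3 comparisons. Among all probe sets 0.00975%, 0.00975% and 0% passed the adjusted threshold, and 1.47%, 2.57% and 2.08% the unadjusted threshold.

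Single treated ischemic brains were set against drug control pools, the pools that share the drug but not the ischemia. A brain and a pool of 6 differ in how much they average. The deposited scale differed too: all drug control pools had a trimmed mean of 2500, and no single brain did. Ischemia, pooling and the set of arrays therefore cannot be told apart in this comparison. Drd2 was 1330, 1211, 1981, 1377 and 1241 in brains 11, 12, 13, 14 and 16, against 3241, 3111 and 3251 in drug control pools. No brain reached any pool. Drd2 was lower by 1.19 on the log2 scale (SE 0.18, limma adjusted p = 0.0127), at 43.9% of the drug control level. Tac1 was 2816, 2340, 3539, 1859 and 1465 in the brains, against 4217, 6708 and 5205 in drug control pools, again without overlap. Its log2 difference was -1.20 (SE 0.30, limma adjusted p = 0.0531). With each of the 8 arrays left out in turn it ran from -1.36 to -1.03, and the limma adjusted p from 0.048 to 0.125. The 0.048 was without brain 13, which had the highest Tac1 of the brains, so leaving it out enlarges the difference.

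The other genes overlapped or missed the threshold in single brains. Penk was 35448, 18184, 50362, 17600 and 17668 in the brains, against 45013, 49649 and 54521 in drug control pools, with a log2 difference of -0.98 (SE 0.38, limma adjusted p = 0.143). Rasgrp2 had a difference of -0.62 (limma adjusted p = 0.131) and Pde1b of -0.52 (limma adjusted p = 0.136). Brain 13 was inside or near the drug control range for Penk, Rasgrp2 and Pde1b. The median over the 6 genes was -0.80, against -0.05 over all probe sets tested. Of the 6 genes 1 passed the adjusted threshold (6.51% of all probe sets), 5 were lower at an unadjusted p under 0.05 (16.3% of all), and 2 did not overlap (12.1% of all). In this comparison many probe sets differed, so these shares are to be read against a high background.

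Oligodendrocyte genes were higher in this comparison. All 8 tested genes of that list were higher in single brains than in drug control pools (median 0.50, 0 of 8 past the adjusted threshold), and their summed intensity was 139229 to 186792 in single brains against 104850 to 130437 in drug control pools. All 8 were above the floor on every single brain. They were also higher in single brains than in treated ischemic pools, which share drug and ischemia (8 of 8, median 0.31). Against ischemic pools 6 of 8 were higher (median 0.20), and 0 of 8 passed the adjusted threshold in either comparison. The rise is therefore not particular to the comparison with drug control pools. All 8 astrocyte genes were higher too (median 0.16, 0 of 8 past the adjusted threshold), with sums of 138984 to 168878 in single brains against 127952 to 135187 in drug control pools. Of 7 microglia and macrophage genes 5 were higher (median 0.32, 0 of 7 past the adjusted threshold), with sums of 23877 to 33545 in single brains against 25622 to 27842 in drug control pools. The summed intensity of 16 general neuron genes was 332691 to 368190 in single brains against 307361 to 373276 in drug control pools. When each array's median log2 over those neuron genes was subtracted, the Drd2 difference was -0.98 and its limma adjusted p was 0.0863. That baseline moved the median of all probe sets by 0.21, although the neuron genes themselves had a median difference of 0.02. The part of other cell types in the result was not tested.

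Against the other ischemic arrays, no gene passed the test in single brains. Their Drd2 difference was -0.26 from treated ischemic pools (95% interval -0.68 to 0.17) and -0.23 from ischemic pools (-0.84 to 0.37). Tac1 was -0.62 from treated ischemic pools and -0.93 from ischemic pools (SE 0.34, limma adjusted p = 0.162). Rasgrp2 was 0.34 and 0.48. The median of the 5 tested genes was -0.26 from treated ischemic pools and -0.23 from ischemic pools, and Rgs9 was not tested. None of the 5 passed the adjusted threshold, which 0.102% and 1.84% of all probe sets passed. At an unadjusted p, 0 and 1 of the 5 were lower, against 8.91% and 13.7% of all.

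The 5 brains differed among themselves, and the same brain stood highest for every bright gene. Brain 13 had the highest Drd2, Rasgrp2, Penk, Tac1 and Pde1b of the 5. As a share of the drug control mean, brain 13 had 61.9% for Drd2, 98.5% for Rasgrp2, 101% for Penk, 65.8% for Tac1 and 90.3% for Pde1b. Brain 16 had 38.8% for Drd2, 46% for Rasgrp2, 35.5% for Penk, 27.3% for Tac1 and 66.1% for Pde1b. Penk split the brains most widely: brains 12, 14 and 16 were between 35.4% and 36.6%, brain 11 was at 71.3% and brain 13 at 101%. The SD of log2 Penk was 0.71 over the single brains and 0.29 within pooled groups. Over all probe sets above the floor on all 17 arrays, the median SD was 0.19 over single brains and 0.35 within pooled groups.

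**Figure D3:**
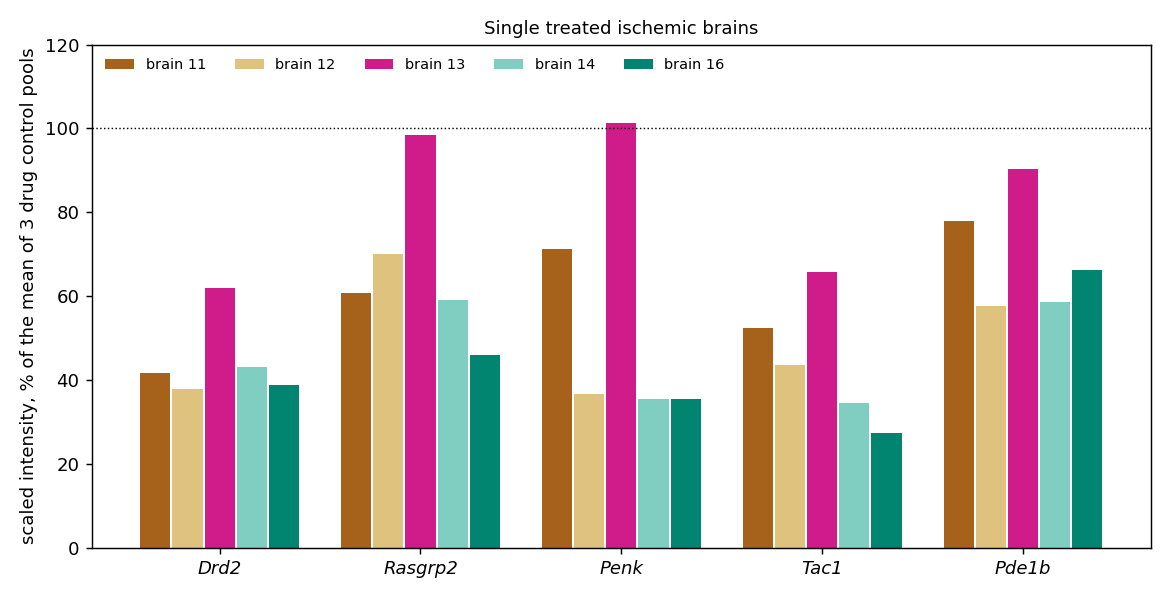
Scaled intensity of 5 genes in each single treated ischemic brain, as a percentage (vertical axis) of the mean of the 3 drug control pools, marked at 100%. Brain 13 is the tallest bar for every gene, and brains 12, 14 and 16 share Penk values between 35.4% and 36.6%.

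Other gene groups differed between the same brains. Brain 13 also had the highest Foxp1 (4164), Meis2 (1234) and Pdyn (698) of the 5; Foxp1 and Meis2 encode transcription factors of striatal projection neurons and Pdyn the dynorphin precursor. The summed intensity of 12 other striatal projection neuron genes was 103820 in brain 13 and 63128 to 85943 in the others. Brain 13 was also the highest for 8 cortical and hippocampal pyramidal genes (84327, others 48269 to 64397), 16 general neuron genes (368190, others 332691 to 359795) and 21 signalling partners (475453, others 425944 to 445093). Interneuron genes were highest in brain 11 (162343, against 159389 in brain 13). The summed intensity of 10 thalamic, hypothalamic and midbrain genes was 18632 in brain 13 and 19017 in brain 11, against 50134, 35895 and 57293 in brains 12, 14 and 16, while it was 27876 to 40377 over the pools without ischemia. Brain 13 had the lowest Hspa1a (66912), Atf3 (3723) and Fos (22774) of the 5, where the others had 74059 to 91503, 5567 to 9184 and 24032 to 38322. Hspa1b was 57195 in brain 13 and lowest in brain 16, at 56731. Whether dissection or the extent of ischemia in each brain plays a part was not tested.

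Whether the 6 genes vary together was asked within groups, where the ischemia difference is removed. Each pooled array's log2 value was taken as a deviation from its group mean, and genes were correlated over the 12 pools. Points in such a correlation share arrays, scaling and pool numbers, so the coefficients are descriptions. The 15 pairs had a median r of -0.13 (from -0.75 to 0.79) and 6 were above 0. Over all pairs of tested probe sets the median was 0.01, with 5% to 95% of pairs between -0.71 and 0.72. Without Rgs9, which was mostly at the floor, the 10 pairs had a median of 0.14, and 5 were above 0. With the single brains added as a group, over 17 arrays, the median was 0.15 for the 15 pairs (10 above 0) and 0.40 for the 10 pairs without Rgs9 (9 above 0). The answer thus depended on whether Rgs9 and the single brains were counted. With every array set relative to general neuron genes, which subtracts a value shared by all genes of an array, the median r was 0.62.

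A few pairs ran alongside each other. Rasgrp2 and Penk had r = 0.79 (Spearman rho 0.58, and r = 0.54 without the 2 farthest pools). Penk and Tac1 had r = 0.75 (rho 0.66, and r = 0.45 without the 2 farthest pools). Drd2 had r = 0.52 with Rasgrp2 and -0.10 with Tac1. Penk and Pde1b ran opposite ways, with r = -0.75 (rho -0.87). Among Drd2, Rasgrp2, Penk and Tac1, the 6 pairs had a median r of 0.47 and 5 were above 0; this set was picked after the pairs were seen.

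The pool number accounted for much of this within-group spread. Its share of the within-group variation was 84.2% for Tac1, 71.8% for Penk, 71.2% for Rasgrp2, 68.8% for Pde1b and 33% for Drd2. Over all tested probe sets the median share was 42.3% and the 95th percentile 88.8%. Tac1 was 0.59 above its group mean in pools numbered 2, on average, and below it in pools 1 and 3. Rasgrp2 was 0.39 below in pools numbered 1. With the pool number removed, the median r of the 15 pairs was 0.01. Penk with Tac1 then had r = 0.74, Rasgrp2 with Penk 0.52, Drd2 with Rasgrp2 0.20 and Penk with Pde1b -0.38. The deviation of the array's actin 3′ to 5′ signal ratio, a sign of RNA and labelling quality, correlated with that of Pde1b at r = 0.82, Penk at -0.61, Rasgrp2 at -0.58, Drd2 at -0.52 and Tac1 at -0.07 over the 12 pools. Its part in the pattern was not tested.

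**Figure D4:**
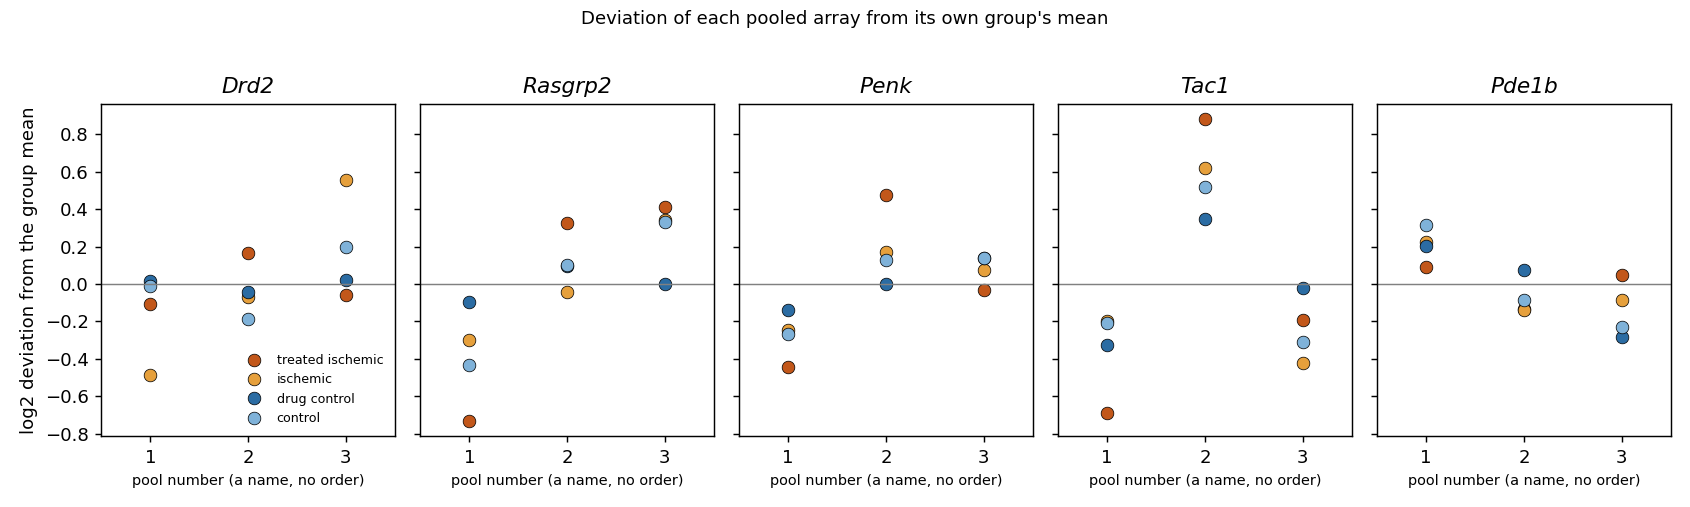
Log2 deviation of each pooled array from its own group's mean (vertical axis) against the pool number, for 5 genes. Tac1 is above its group mean in pool 2 of all 4 groups, Rasgrp2 is below it in pool 1 of all 4 groups, and Drd2 shows no such order.

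The same arrays were also compared by pool number. In control, drug control and ischemic pools, same-numbered arrays deviated together over all probe sets (r between 0.33 and 0.57), and those of treated ischemic pools did not in all cases (r between -0.34 and 0.40). Between ischemic and control pools of the same number, the log2 difference was -1.30 to -0.47 for Drd2, -1.28 to -1.0 for Rasgrp2, -0.57 to -0.47 for Penk, -0.57 to -0.34 for Pde1b and -0.33 to -0.11 for Tac1, below 0 in 3 of 3 pairs for each. Rgs9 ran from -1.21 to 0, below 0 in 2 of 3. In this arm the Penk and Rasgrp2 values were close from pair to pair although the pools themselves were far apart. With drug they were not close: treated ischemic minus drug control pools gave -0.87 to -0.09 for Penk and -1.61 to -0.55 for Rasgrp2. There Drd2 ran from -1.06 to -0.73, Pde1b from -0.81 to -0.27 and Tac1 from -0.95 to -0.05. Each of these was below 0 in 3 of 3 pairs, and Rgs9 (-1.64 to 0.88) in 1 of 3.

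Other genes of the same neurons were read for comparison. Of 36 further striatal projection neuron genes, 12 were measured and tested. All 12 were lower as the mean of both ischemia comparisons, where 47.5% of all probe sets were lower. Some were dim: 9 of the 12 were above the floor on all treated ischemic pools, and 9 on all ischemic pools. Their median was -0.31 against 0.01 over all probe sets, and 0 of 12 passed a limma adjusted p of 0.05. The 3 furthest from 0 were Pdyn (-0.52, SE 0.43), Foxp1 (-0.50, SE 0.15, limma adjusted p = 0.498) and Meis2 (-0.46, SE 0.31). Pdyn was dim, and its ischemic pool 2, at -10, was set to the floor. Foxp1 was 2395, 3409 and 2570 in treated ischemic pools against 4546, 4542 and 4051 in drug control pools, and 3144, 3544 and 2913 in ischemic pools against 4323, 4861 and 3106 in control pools. Foxp1 separated the groups with drug and not without. Taken apart, 12 of the 12 genes were lower with drug (53.5% of all probe sets) and 9 without (45.7%). Without drug Ido1 (0.41), Pcp4 (0.17) and Ngef (0.06) were higher. In single brains against drug control pools 10 were lower (54.4% of all), and Ebf1 (0.90) and Isl1 (0.61) were higher. Isl1 was at the floor on every ischemic pool, with and without drug.

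Partners of dopamine and cyclic AMP signalling that are not specific to these neurons behaved otherwise. Of 21 tested genes, among them protein kinase A subunits, G protein subunits and phosphatases, 10 were lower and 11 higher, with a median of 0.01 and 0 of 21 past the adjusted threshold. Striatal and cortical interneuron genes had a median of 0.01 (5 of 11 lower), cortical and hippocampal pyramidal genes -0.13 (5 of 8 lower) and general neuron genes -0.07 (12 of 16 lower). Thalamic, hypothalamic and midbrain genes had -0.20 (7 of 10 lower). Among other cells, astrocyte genes had 0.15 (7 of 8 higher), oligodendrocyte genes 0.21 (7 of 8 higher), microglia and macrophage genes 0.04 (4 of 7 higher) and choroid plexus genes 0.19 (3 of 4 higher). None of the genes of these 8 lists passed the adjusted threshold, and the difference between lists was not tested. Summed intensities of astrocyte genes were 136318 to 155190 in treated ischemic pools against 127952 to 135187 in drug control pools, and of oligodendrocyte genes 123017 to 149842 against 104850 to 130437. Without drug, the astrocyte sums were 135546 to 147560 in ischemic pools against 118958 to 148436 in control pools, and the oligodendrocyte sums 129731 to 149893 against 106790 to 132913, so that both overlapped. Their part in the lower striatal values was not tested.

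**Figure D5:**
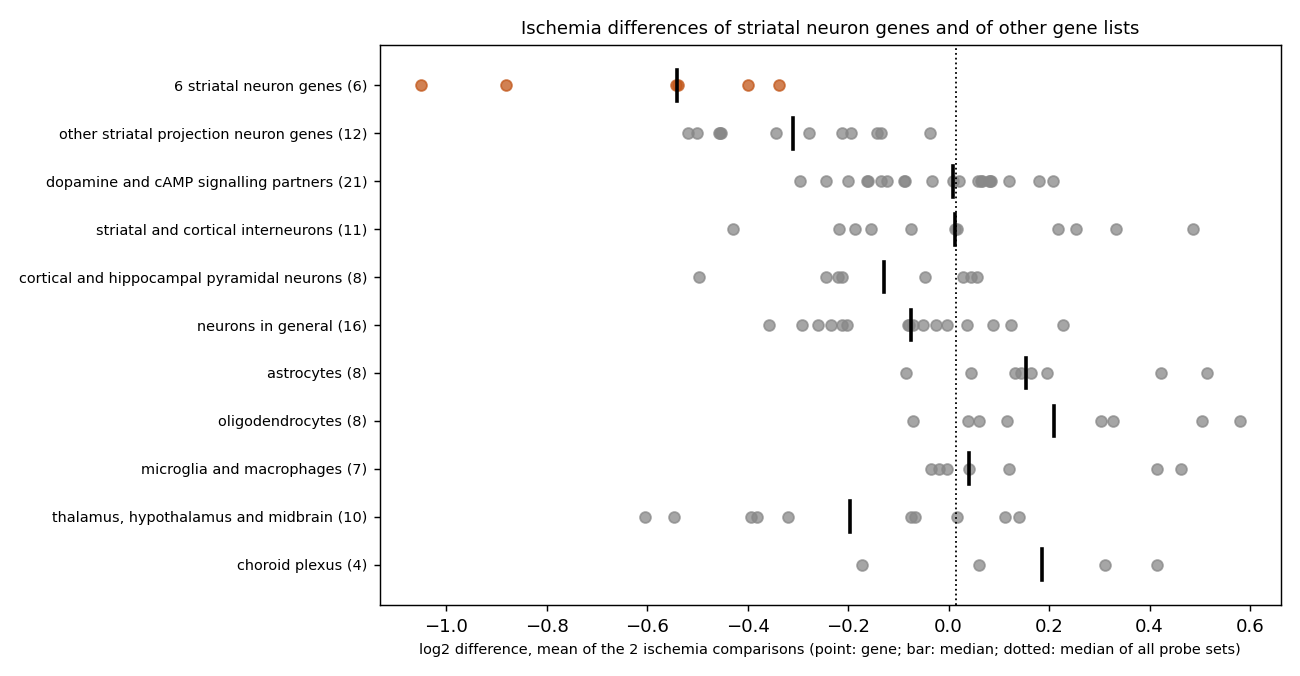
Log2 difference (horizontal axis) of each gene as the mean of both ischemia comparisons, for the 6 striatal neuron genes and 10 other lists; black bars are list medians and the dotted line the median of all probe sets. The 6 genes have a median of -0.54 and the 12 other striatal projection neuron genes one of -0.31, while the signalling partners centre near 0.

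The genes most like the 6 in their pattern were sought over 9075 probe sets, by correlation over the 12 pools with the mean z-score of the 6 genes. The closest were Rprd1a (r = 0.93), Dazl (0.90), Dlg3 (0.89), Atf6 (0.87), Fkbp5 (0.86), Kcnab1 (0.85), Hcfc1 (0.83), Wdr48 (0.82), Pcp4l1 (0.82) and Sez6 (0.81). The ischemia difference is part of this likeness, because the group means were kept. Of the 10, Dazl had a mean ischemia difference of -1.60 (SE 0.23, limma adjusted p = 0.0125) and was above the floor on 9 of 12 pools. Fkbp5 had -0.71 (SE 0.13, limma adjusted p = 0.0507), and the others had between -0.55 and -0.26.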

How the data were processed

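The deposited values are linear intensities, 1 per probe set and array, some below 0 (15.2% to 19.3% of an array); no source used here names the authors' software, background step or scaling. Each array was multiplied to a trimmed mean of 2500, floored at the 25th percentile of the scaled pools and put on the log2 scale. Arrays carry no read depth, and their number limits the precision. Symbols are those of the platform annotation, updated through Entrez numbers: 10855 probe sets had 1 symbol, 396 several and 1237 none. A gene's value is its brightest probe set. Probe sets above the floor on 3 or more arrays of a fit were tested, leaving out 66 array controls. limma 3.58.1 in R 4.3.3 fitted the 12 pools together and single brains with 1 pooled group at a time, with Benjamini-Hochberg adjustment over all probe sets tested (10259 for pools, 9847 to 9907 for single brains). The fits were tested on simulated data. The genes, the comparison lists and the tests were chosen with earlier results of these data known. Named were all genes of the set with every probe set, the 10 probe sets most alike, and the 3 other striatal genes furthest from 0. Alternatives were other scalings, floors and filters, probe averaging, trend and robust fits, blocks for pool number and for scale, the actin ratio as a covariate, neuron genes as the baseline, groups from the descriptions, and leaving out arrays. Same-numbered pools deviated together (every r over 0.1) among control, drug control and ischemic pools. With treated ischemic pools they did so in some pairs only (r between -0.34 and 0.40). What a number shares is not stated. Outliers were sought by Dixon's test in the single brains.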

Additional observations from a re-analysis of the deposited data

Results flagged for a closer look

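Drd2 in brain 13 stood away from the other single brains. Its gap to the nearest brain, on the log2 scale, was 0.738 of the whole range of the 5 brains, above Dixon's critical value of 0.71. The intensity was 1981 in brain 13 and 1211 to 1377 in the other 4 brains, all of them under the 3111 to 3251 of drug control pools. This was 1 flag among 6 groups of single-brain values tested, and chance flags about 1 group in 20. Without brain 13, the highest of the 5, the Drd2 difference from drug control pools was -1.31 (limma adjusted p = 0.00489). With 1 array left out in turn that difference ran from -1.31 to -1.14, and the limma adjusted p from 0.00489 to 0.0441.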

How the results depend on the processing

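Of 715 refits of single genes of the set, 697 kept direction and side of the threshold. In the mean of both ischemia comparisons, 1 of the 6 genes passed in place of 0 with the floor at the 40th percentile (Drd2, limma adjusted p = 0.0458) and with a replicate block (Rasgrp2, 0.024). With 1 array left out in turn, 0 to 1 passed (Drd2, 0.0217 without ischemic pool 3). The scale block leaves treated ischemic pool 1 alone in its group, so no call of that fit is listed. Over the 13 alternatives other than leaving out arrays in turn, the adjusted p ran from 0.0458 to 0.991 for Drd2 and from 0.024 to 0.991 for Rasgrp2. The replicate block changed no other call of the 6 genes. Against drug control pools, single brains had 2 genes past the threshold with the 40th percentile floor (Tac1, 0.0302) and with trend and robust fits (Tac1, 0.0297), 0 relative to neuron genes (Drd2, -0.98), and 1 to 2 with 1 array left out in turn (Tac1, 0.048 without brain 13). With the scale set as a block, which lets treated ischemic pools 2 and 3 have their own level, the median of the 6 genes was -1.02 for treated ischemic minus drug control pools and -0.32 for treated ischemic minus ischemic pools. Without treated ischemic pool 2 the first was -0.91, and it was -0.56 at the other end of leaving out arrays. Why treated ischemic pool 1 differed from pools 2 and 3 was not tested.

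Rgs9 in treated ischemic minus drug control pools turned to 0.78 with the scale block and 0.066 with the actin ratio. It ran from -0.77 to 0.18 with 1 array left out in turn. As the mean of both comparisons it turned to 0.18 with the scale block. The scale block values rest on treated ischemic pool 1 alone for its group. With 1 array left out in turn, Tac1 ran from -0.53 to 0.042 for ischemic minus control pools, Drd2 from -0.48 to 0.045 for single brains minus ischemic pools, and, for single brains minus treated ischemic pools, Rasgrp2 from -0.025 to 0.55 and Pde1b from -0.015 to 0.15. The median pair correlation was 0.0050 with the replicate block removed, 0.14 with the 40th percentile floor, -0.24 after quantile normalization, and 0.62 relative to neuron genes, where a value shared by all genes of an array is subtracted; with 1 array left out in turn it ran from -0.28 to -0.055. In the comparisons of drug and in the interaction, 0 of 149 refits each passed, and 23, 22 and 20 changed sign. Calls over all probe sets ran from 11 to 35 (22 as reported) for ischemic minus control pools, 1 to 16 (9) for treated ischemic minus drug control pools, 19 to 65 (46) for the mean of both, 125 to 935 (645), 14 to 393 (182) and 0 to 11 (10) for single brains minus drug control, ischemic and treated ischemic pools. With 1 array left out in turn they ran from 1 (without ischemic pool 1 or 3) to 25, 1 (without drug control pool 3 or any treated ischemic pool) to 12, 30 to 44, 234 (without drug control pool 3) to 983 (without drug control pool 2), 48 (without brain 13) to 449 (without ischemic pool 1), and 2 (without treated ischemic pool 2) to 615 (without treated ischemic pool 3), in the same order. Setting arrays relative to neuron genes moved the median of all probe sets by up to 0.21. A floor at the 10th percentile was planned and not run, because that percentile was below 0; the 20th percentile was used in its place, chosen after seeing the data. Precision is limited by 3 arrays per pooled group.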
